A study of Mus musculus and Homo sapiens with 22 samples.

Results

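The predicted N6-methyladenosine (m6A) sites of HEK293T cells that lie outside the consensus motif DRACH were examined. Of the 36556 sites in the HEK293T list, 3917 (10.7%, Wilson 95% interval 10.4 to 11%) had 5 nt centred on the adenosine that did not match DRACH in GRCh38, and the other 32639 matched it. DRACH allows any base but C at its first position and a purine at the second, fixes the adenosine and the C after it, and allows any base but G at its last position. The sites came from miCLIP2, in which an antibody against m6A is crosslinked to poly(A)+ RNA by UV light and the sequencing reads end next to the crosslinked base, and from m6Aboost, a classifier that the study trained on peaks lost in Mettl3 knockout cells. HEK293T is an established human embryonic kidney cell line, and its list was made from 4 replicates pooled into 1 score per site. For comparison, the list of wild-type mouse embryonic stem cells (mESC WT, 3 replicates, pooled in the same way) held 1813 sites outside DRACH of 25456, and the list of 1 library from 1 µg of purchased mouse heart RNA held 3217 of 46421. The same rabbit antibody (Synaptic Systems) was used for all of these samples. No genotype or treatment separated the samples used here. The lists hold neither single replicates nor values labelled as read counts, so the spread between replicates and the depth behind a site are unknown. All intervals below cover counting error only.

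Most m6A in mRNA is placed by the METTL3-METTL14 complex, which acts on adenosines in DRACH, and many m6A sites lie close to stop codons and in long internal exons. Another enzyme, METTL16, methylates a different motif in a folded RNA, and the cap-adjacent base m6Am, which the same antibodies bind, is made by PCIF1. The sequence around a peak and its transcript region are inputs of m6Aboost, and the classifier learned them from mESC. Shares of motifs and regions, and differences in score between motifs, are therefore partly built in. The rule used the 5 nt alone. Neither the rule nor the classifier directly used the distance to splice junctions or other sites, or the repeat in a separate library. The rule did not use the sequence in mouse, but the mESC list comes from the same classifier, which learned from mESC.

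Positions are counted from the adenosine at 0, so that DRACH spans -2 to +2. Only the base at +2 was broken at 2044 of the 3917 sites (52.2%), only -1 at 1039 (26.5%), only +1 at 388 (9.91%) and only -2 at 324 (8.27%). Several positions were broken at 122 sites (3.11%), most often +1 together with +2 (57 sites) or -2 together with -1 (27 sites). Within these groups the sites were concentrated in a few pentamers. The 3 most frequent pentamers with +2 broken were GGACG (1493 sites, 73.0% of the group), AGACG (238) and also GAACG (201). With -1 broken they were GTACT (585 sites, 56.3%), ATACT (152) and also GCACT (117). With +1 broken they were GGATT (229 sites, 59.0%), GAATT (30) and also GGAGT (16), and with -2 broken CAACT (156 sites, 48.1%), CGACT (149) and also CGACA (7). GGACG alone made up 38.1% of all sites outside DRACH (36.6 to 39.6%). At -1 the base was T at 86.4% of the group's sites and C at 13.6%, and at +1 it was T at 83.5%, G at 8.51% and A at 7.99%. At the positions that were not broken, several groups were rich in the bases of the leading DRACH pentamer GGACT. C followed the adenosine at 88.0% of all sites outside DRACH, and T stood at +2 at 92.1% of sites with -1 broken and 94.1% of sites with -2 broken, compared with 60.6% of DRACH sites (60.1 to 61.1%). Over all sites outside DRACH, T at +2 made up 41.2%, since the largest group has G there by its rule. G stood at -1 at 88.0% of sites with +2 broken and 85.6% with +1 broken (DRACH sites 73.7%), but at only 49.4% with -2 broken, where A made up the other 50.6%. For each single break, the 3 highest-scoring sites in exons of a single named gene (sites of 1 chromosome are not shown here) show these forms within 21 nt, with the pentamer in capitals and the predicted adenosine at its centre. Sites with higher scores than some of these were left out by that choice, mostly because they lay in exons of several genes.
SPEN-AS1: agccaaagGGACGctgggggg
COL9A3: agcacagtGGACGgtcatgaa
SDHAF1: cccgtgatGGACGgcaaggga
CZIB: aggacaaaGTACTctaagcag
COG8: cagtgcatGTACTttgggctg
SLC41A1: ggctgcaaGTACTgtttccat
KIAA0930: cagaatttGGATTctgagggt
PGAP3: agcagactGGATTtttgctct
GPR27: agacacttGGATTgtactgac
DEXI: agatgcagCGACTgtttcagg
USP2: gtcagaaaCAACTgtgtcttg
NOTCH2: catgaaagCAACTttggtctc
These windows are written 5' to 3' on the transcribed strand, in GRCh38. SPEN-AS1 (chr1:15835765-15835785 (-)) is a noncoding RNA, COL9A3 (chr20:62840770-62840790 (+)) encodes a collagen IX chain and SDHAF1 (chr19:35995789-35995809 (+)) an assembly factor of succinate dehydrogenase. CZIB lay at chr1:53214601-53214621 (-), COG8, a Golgi trafficking subunit, at chr16:69334872-69334892 (-) and SLC41A1, a magnesium transporter, at chr1:205810126-205810146 (-). KIAA0930 lay at chr22:45196427-45196447 (-), PGAP3, which remodels GPI anchors, at chr17:39671278-39671298 (-) and GPR27, an orphan receptor, at chr3:71755303-71755323 (+). DEXI lay at chr16:10929149-10929169 (-), USP2, a deubiquitinase, at chr11:119356535-119356555 (-) and NOTCH2, a receptor of the Notch pathway, at chr1:119914733-119914753 (-). Of these 12 sites, 8 were in a 3' UTR, those of COG8 and SLC41A1 were in the CDS, that of SPEN-AS1 in a noncoding exon and that of DEXI in an exon outside its longest coding transcript. Scores were between 0.951 and 0.964 for the first 3 sites and between 0.766 and 0.815 for the other 9.

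**Figure D1:**
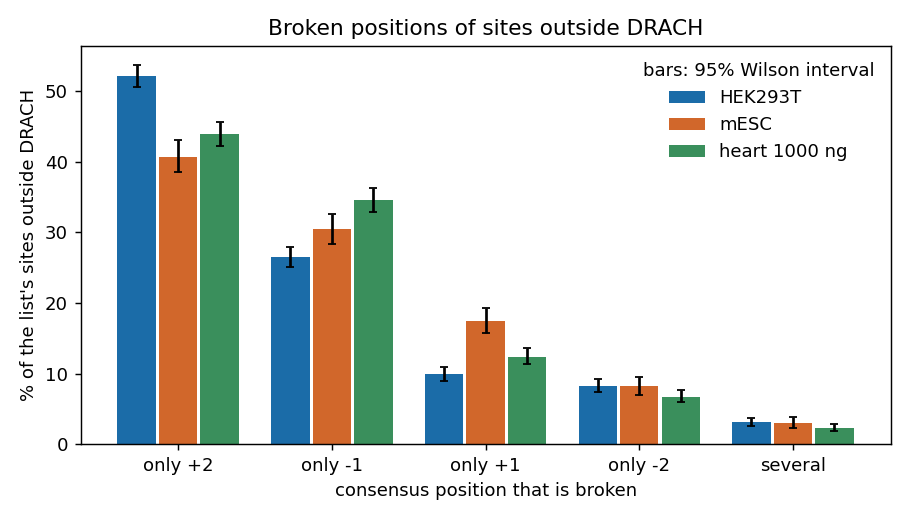
Share of each list's sites outside DRACH (y axis, %) by the consensus position that is broken (x axis), for HEK293T (n = 3917), mESC (n = 1813) and heart at 1000 ng (n = 3217); error lines are Wilson 95% intervals. Breaks at +2 led in all 3 lists, at 52.2, 40.8 and 43.9%.

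The same order of groups was found in both mouse lists. In mESC, 40.8% of the 1813 sites had +2 broken, 30.5% -1, 17.5% +1 and 8.22% -2, and in heart these shares were 43.9, 34.6, 12.4 and 6.75% of 3217 sites. HEK293T stood above both in the share of +2 (50.6 to 53.7% against 38.5 to 43.0% and 42.2 to 45.6%) and below both in the share of -1 (25.2 to 27.9% against 28.4 to 32.7% and 33.0 to 36.3%).

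To see how often each sequence was listed, sites were set against all occurrences of their pentamer in the longest coding mRNAs of the 6512 genes with a site on that mRNA. GGACG had 79.3 sites per 1000 occurrences (1266 of 15960; 75.2 to 83.6), the seventh highest rate of the 256 pentamers and above 12 of the 18 DRACH pentamers. GTACT had the tenth highest rate with 34.0 per 1000 (31.1 to 37.0), above 10 DRACH pentamers. In contrast, the DRACH pentamers AAACC and also TAACA had 2.30 and 1.71 sites per 1000. Among the 238 pentamers outside DRACH, 79 had a site on these mRNAs and 22 had at least 10. Starting from GGACT (219.6 per 1000), a change of 1 letter gave a graded set of rates. At +2 the rates were 121 with A, 91.8 with C and 79.3 with G, which is the base that DRACH leaves out. At -1, A gave 129, T 34.0 and C 4.20 per 1000. At -2, A gave 113, T 80.7 and C 15.2. At +1, T gave 8.71, G 0.401 and A 0.0780 per 1000. G and A at +1 thus had the lowest rates of this set, while T at +1 stood between C at -1 and C at -2.

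**Figure D2:**
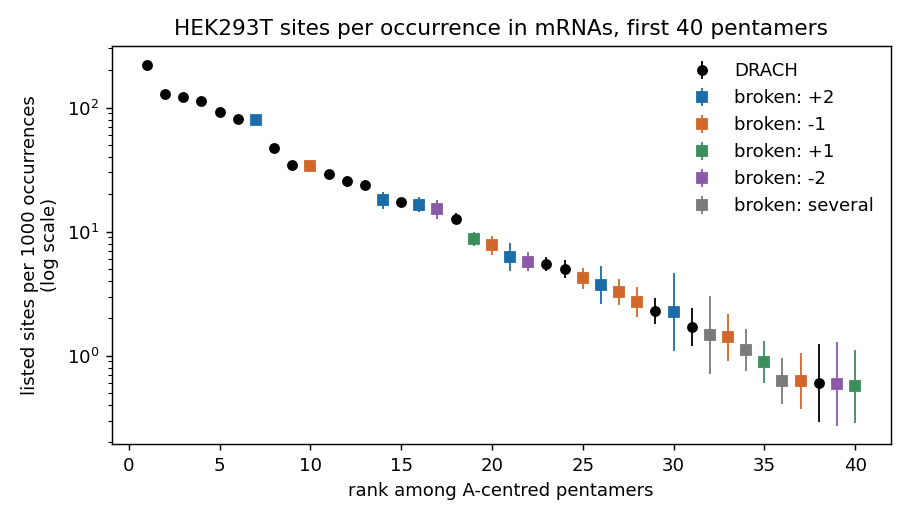
HEK293T sites per 1000 occurrences in mRNAs (y axis, log scale) for the 40 A-centred pentamers with the highest rates (x axis, rank); circles are DRACH pentamers, squares are pentamers outside DRACH coloured by the broken position, and lines are Wilson 95% intervals. GGACG at 79.3 and GTACT at 34.0 stand among the DRACH pentamers.

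The rates with G at +2 were compared with those of C at +2, which DRACH allows, for each of the 6 starts that DRACH permits. In HEK293T, G was lower than C after GGAC (-12.5 per 1000, Newcombe 95% interval -17.7 to -7.17) and after GAAC (-6.02, -9.24 to -2.57), and it was higher after AAAC (1.43, 0.153 to 3.07) and TAAC (1.67, 0.340 to 4.10). The intervals after AGAC (-0.778, -3.41 to 2.05) and after TGAC (1.24, -0.428 to 3.21) held 0. In mESC and heart, G was again lower than C after GGAC (-20.3, -24.7 to -15.7, and -24.9 per 1000, -29.6 to -20.0), and no start had G above C beyond its interval. GGACG was listed at 39.3 per 1000 occurrences in mESC and at 59.3 in heart, and GTACT at 22.4 and 36.5. The rate of GGATT was alike in the 3 lists, at 8.71 (7.60 to 9.98), 9.56 (8.25 to 11.1) and 9.41 (8.27 to 10.7) per 1000.

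The rate of GGACG rose along the mRNA in HEK293T, from 21.1 per 1000 in the 5' UTR (15.9 to 28) through 78.1 in the CDS (73.2 to 83.4) to 126 in the 3' UTR (114 to 138). In the 3' UTR this was within the interval of GGACC (123, 117 to 130), and the interval of GGACA (137, 132 to 143) overlapped it. The rates of GGACC and GGACA rose along the mRNA as well. GGACC had 34.6 per 1000 in the 5' UTR and 84.6 in the CDS, and GGACA had 59.3 and 117. GGACT had nearly the same rate in the 3 regions of HEK293T, at 201.7, 221 and 221 per 1000. However, GGACT rose in mESC (126, 190 and 222) and in heart (107, 224 and 288). In HEK293T, GTACT went the other way between the last 2 regions, with 47.3 per 1000 in the CDS (42.2 to 53.1) and 25.9 in the 3' UTR (22.7 to 29.6). In mESC, GTACT had 21 in the CDS (17.6 to 25.0) and 24.6 in the 3' UTR (21.3 to 28.4). In HEK293T, CGACT, which holds CG as GGACG does, had 13.2 in the CDS (10.6 to 16.6) and 26.4 in the 3' UTR (20 to 34.8).

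The base after the pentamer also differed at the listed sites. G stood at +3 at 52.8% of listed GTACT sites (48.4 to 57.2%), compared with 31.6% of all GTACT occurrences in the same mRNAs (22.0 points between listed and other occurrences, 17.5 to 26.4). CAACT (57.0%, 27.5 points, 18.8 to 35.7), CGACT (53.2%, 21.1 points, 12.4 to 29.7) and also GGATT (39.5%, 19.6 points, 13.2 to 26.5) showed the same. At the DRACH pentamer GGACT the share was 37.5% and the difference 7.47 points (6.11 to 8.83). At GAACT, also DRACH, they were 43.6% and 12.6 points (10.8 to 14.3). GGACG had less G at +3 than its other occurrences (23.9%, -4.37 points, -6.76 to -1.84) and more T (24.6%, 5.75 points, 3.36 to 8.27). A at +3 was rare at GTACT (4.64% against 16.7% of occurrences) and at CGACT, where 1 of 126 sites had it. These 21 nt are read by the classifier, so this pattern too is partly built in.

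The m6Aboost score of a site runs from 0.5, the lowest listed, to 1. Sites outside DRACH had a median of 0.619 (quartiles 0.548 and 0.712), compared with 0.727 (0.625 and 0.823) at DRACH. The groups differed among themselves: the median was 0.671 with +2 broken, 0.596 with -2, 0.594 with -1, 0.567 with +1 and 0.531 with several positions. All 51 sites outside DRACH with a score of at least 0.9 had +2 broken, 49 of them at GGACG and 2 at GAACG. The median of GGACG was 0.687 (95% interval of the median 0.678 to 0.698), which overlapped that of GGACC (0.684, 0.679 to 0.690) and lay below GGACA (0.712, 0.708 to 0.717) and GGACT (0.793). The share of sites outside DRACH fell from 21.2% of all sites with a score under 0.6 to 1.97% of those from 0.9 upwards. In the 2264 genes with both kinds of site, a site outside DRACH had the gene's highest score in 190 (8.39%), whereas such sites made up 19.2% of the sites of these genes.

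**Figure D3:**
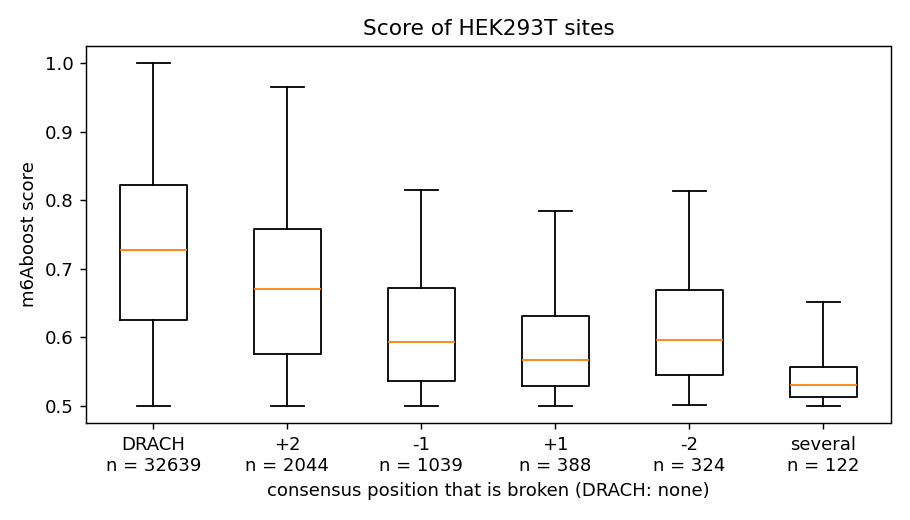
m6Aboost score (y axis) of HEK293T sites by broken consensus position (x axis, with the number of sites); boxes show quartiles and median, whiskers the lowest and highest site. The median falls from 0.727 at DRACH to 0.671 with +2 broken and 0.531 with several positions broken.

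Next, the place of the sites in transcripts was determined from the longest coding transcript of each gene. Of the sites outside DRACH, 45.2% were in the CDS, 38.3% in the 3' UTR and 2.02% in the 5' UTR. DRACH sites had 42.2, 39.6 and 3.40%, so that the difference was 2.93 points in the CDS (Newcombe 95% interval 1.29 to 4.58), -1.29 points in the 3' UTR (-2.89 to 0.334) and -1.38 points in the 5' UTR (-1.83 to -0.858). At scores of at least 0.7 the difference in the CDS was 6.10 points (3.14 to 9.11). The groups diverged more than this total. Sites with +2 broken lay in the CDS at 53.2% and in the 3' UTR at 28.3%, differing from DRACH by 11 points (8.72 to 13.2) and by -11.2 points (-13.2 to -9.17). Sites with +1 broken showed the opposite, with 29.6% in the CDS and 57.7% in the 3' UTR (18.2 points above DRACH, 13.2 to 23), and sites with several positions broken lay in the 3' UTR at 73.8%. Sites with -1 broken had 47.5% in the 3' UTR, and those with -2 broken had 34.6%, which did not differ from DRACH beyond the interval (-4.99 points, -9.99 to 0.369). The occurrences themselves were spread unevenly, since 66.9% of GGACG in these mRNAs stood in the CDS and 19.2% in the 3' UTR, compared with 36.5% and 57.6% of GGATT.

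Sites outside DRACH gathered around the stop codon as DRACH sites did. Of the 3347 sites placed on a longest coding mRNA, 47.8% (46.1 to 49.5%) lay within 400 nt of the stop codon, compared with 45.9% of 27804 DRACH sites (difference 1.96 points, 0.175 to 3.75). The share was 42.1% with +2 broken, 54.6% with -1 and 54.4% with +1. On the axis along the mRNA, the last base before the stop codon stood at 0 and the coding side was negative. The median site stood at -292 nt with +2 broken, at 60 nt with -1 and at 122 nt with +1 broken.

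**Figure D4:**
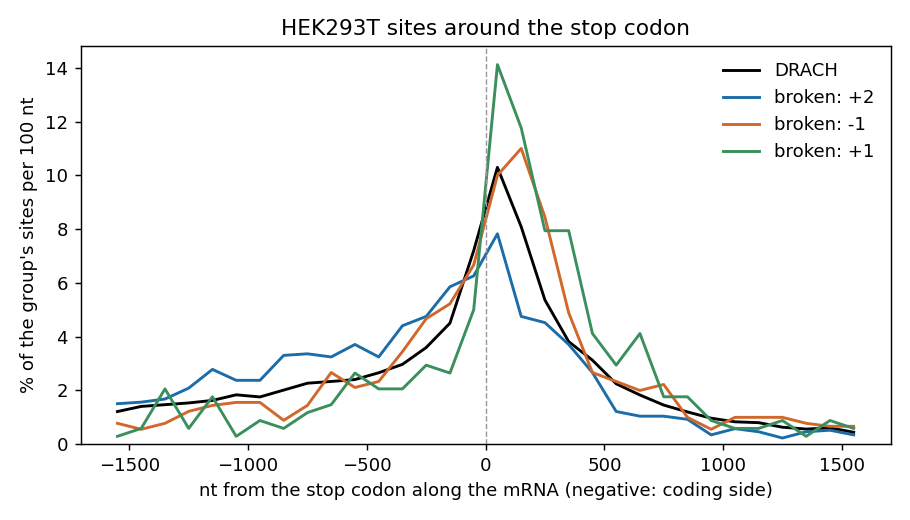
Share of each group's HEK293T sites per 100 nt (y axis, %) against the distance from the stop codon along the mRNA (x axis, nt, negative on the coding side), for DRACH sites and for sites with +2, -1 or +1 broken. All 4 lines peak within 200 nt after the stop codon, and the group with +2 broken has more of its sites on the coding side.

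Sites were also depleted next to splice junctions. Of the 1769 sites outside DRACH in the CDS, 17.0% (15.3 to 18.8%) lay within 100 nt of a junction, whereas 70.1% of all adenosines outside DRACH in the CDS of these mRNAs did. For the group with +2 broken the share was 14.7% of 1087 sites against 68.8% of 35478 occurrences of its pentamers, for -1 it was 21.6% against 69.3%, for +1 26.1% against 71.6% and for -2 12% against 68.6%. DRACH sites had 20.5% against 70.5%. The difference between sites outside DRACH and at DRACH was -3.45 points (-5.26 to -1.51), but it was not detectable in genes with both kinds of site (-0.179 points, -2.07 to 1.83) or outside the last exon (-1.01, -4.15 to 2.32). In mESC and heart, 16.9% of 758 and 12.8% of 1266 coding sites outside DRACH were this close to a junction, against 73.4 and 70.7% of the occurrences.

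Within codons, the adenosine of GGACG stood at the second position, in the aspartate codon GAC, at 71.5% of 834 coding sites (68.3 to 74.4%). This equalled its share among GGACG occurrences (71.5% of 10672), with a difference of -0.0761 points (-3.36 to 3.02) between listed and other occurrences. Of the 8 pentamers examined, only GAACG had an interval that left out 0, with 63.0% of 100 coding sites at the second codon position and 12.3 points more than its other occurrences (2.47 to 21.2).

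To ask whether sites outside DRACH accompany listed DRACH sites, the distance to the nearest DRACH site of the list on the same strand was measured. The median was 54 nt (quartiles 23 and 144 nt), and for DRACH sites the nearest other DRACH site stood at a median of 60 nt (24 and 181 nt). A DRACH site lay within 50 nt of 47.4% of sites outside DRACH (45.8 to 49.0%) and of 45.0% of DRACH sites, and within 200 nt of 80.4 and 76.5%. The group with +1 broken was closer, with a DRACH site within 50 nt at 58.2% (13.2 points above DRACH sites, 8.21 to 18.0) and within 5 nt at 11.1% of 388 sites, while these shares were 44.7 and 1.66% with +2 broken. At the other end, 205 sites outside DRACH (5.23%) had no listed DRACH site within 10000 nt, compared with 2269 DRACH sites without another one (6.95%), a difference of -1.72 points (-2.43 to -0.928). Where a DRACH site lay within 10 nt (423 sites), it had the higher score in 325 pairs (76.8%, 72.6 to 80.6%). Without regard to distance, the mean score was lower outside DRACH in 1814 of 2264 genes with both kinds of site (80.1%). The 423 sites had a median score of 0.627, and the other sites outside DRACH had 0.618. The letters of DRACH do not allow 2 DRACH sites within 3 nt of each other, which lowers the counts of DRACH sites in the shortest windows.

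A listed DRACH site can stand directly 3' of the adenosine only where +1 is A. Of the 31 sites with +1 broken and A there, 25 had one (80.6%, 63.7 to 90.8%), so that the list held both adenosines of the pair. Of the sites with G and T at +1, 15.2 and 15.1% had a listed DRACH site within 10 nt.

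DRACH motifs in the sequence, listed or not, were also counted. Over all sites outside DRACH, such a motif lay within 10 nt at 23.4% (22.1 to 24.7%) and within 5 nt at 6.79% (6.04 to 7.62%), compared with 35.7 and 20.7% of all adenosines outside DRACH in the same mRNAs, whose pentamers are a different mix. Against occurrences of the same pentamer the differences were small. A DRACH motif lay within 10 nt of 20.5% of listed GGACG sites (18.3 to 22.8%) and of 19.1% of all GGACG occurrences, a difference of 1.5 points between listed and other occurrences (-0.729 to 3.89). For GTACT the shares were 20.4 and 23.3% (-2.97 points, -6.36 to 0.868). Of the 8 pentamers compared, GGATT alone had an interval that left out 0, with 28.3% of listed sites and 6.51 points more than its other occurrences (0.763 to 13.1).

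Since the antibody also binds m6Am at capped ends, the distance to annotated transcript starts was measured. Within 5 nt of a start lay 49 sites outside DRACH (1.25%, 0.948 to 1.65%) and 256 DRACH sites (0.784%), a difference of 0.467 points (0.147 to 0.876). Within 2 nt lay 29 (0.740%) and 137 (0.420%), a difference of 0.321 points (0.0837 to 0.648). Exactly at a start lay 8 (0.204%) and 33 (0.101%), and the interval of this difference held 0 (0.103 points, -0.00555 to 0.304), as did those within 10 nt (0.284 points, -0.0754 to 0.730) and within 50 nt (0.383 points, -0.252 to 1.10). By group, the share within 5 nt was 1.52% with +2 broken (1.07 to 2.14%), 0.866% with -1 (0.456 to 1.64%), 1.29% with +1 (0.552 to 2.98%) and 1.23% with -2 (0.481 to 3.13%), so that the groups' intervals overlapped.

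Sites outside DRACH were spread over many genes. In all, 3698 lay in exons of a single gene, in 2390 of the 7133 genes with a listed site (33.5%), and 94.7% of these genes had a DRACH site too. A single site outside DRACH was found in 1596 genes and 3 or more in 310. Of the 3698 sites, 96.4% were in protein-coding genes and 3.03% in lncRNA genes (DRACH sites 3.22%). The share of sites outside DRACH rose with the number of sites in the gene, from 7.53% in genes with 1 site (6.32 to 8.96%) through 8.82% with 2 to 4 and 10.7% with 5 to 9 to 12.4% with 10 to 19 (11.8 to 13.1%), and was again 12.4% in genes with 20 or more.

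The gene with the most sites outside DRACH was PLEC, which encodes the cytoskeletal linker plectin. It held 11, all GGACG and 10 of them in the CDS, beside 34 DRACH sites. HELZ2, a nuclear helicase and coactivator, had 8, also all GGACG and all in the CDS, beside 18 DRACH sites. WDR6, which takes part in tRNA methylation, was mixed, with 3 sites with +2 broken, 3 with +1, 2 with -1 and 1 with -2, beside 21 DRACH sites, and 8 of its 9 sites were coding. MIEF2, a mitochondrial fission factor, had 8 sites with all 4 single breaks, beside 15 DRACH sites. The next genes had 7 sites each: ANKRD11, a chromatin regulator, LRRC14 and PRRC2B, the last 2 with 6 of 7 sites in the 3' UTR. With 6 sites followed CHPF2 (chondroitin synthesis), COL6A2 (a collagen VI chain), F2RL1 (the receptor PAR2), FOXK2 (a forkhead factor) and GEMIN4 (of the SMN complex). F2RL1 had the highest share of sites outside DRACH of these 12 genes (6 of 13, 46.2%), and in FOXK2 all 6 stood in the 3' UTR beside 28 DRACH sites. Scores in the 12 genes ran from 0.501 in PRRC2B to 0.932 in WDR6.

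Only 2 genes had at least 3 sites outside DRACH and no DRACH site. WRNIP1, an ATPase that binds the Werner helicase, had 4 GGACG sites in its CDS with scores of 0.520 to 0.735. TARBP1, a tRNA methyltransferase, had 3 coding sites, of which 2 were GGACG and 1 was CGACT, with scores of 0.545 to 0.746.

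In genes of the m6A pathway, counts were small and the shares lay on both sides of the 10.7% of all listed sites. In the writer complex, 5 of 74 sites in 7 genes lay outside DRACH (6.76%): 3 in RBM15B and 1 in RBM15, which bring the complex to RNA, and 1 in WTAP, its regulatory subunit. The site of WTAP was at GTACT with a score of 0.731 and had a DRACH site 18 nt downstream. METTL3, METTL14, VIRMA and ZC3H13 had DRACH sites only, and CBLL1 had no listed site. Among the erasers, ALKBH5 held 2 sites outside DRACH of 8 (25%), at GTACT and at CGACT, and FTO had none listed. Among the readers, 6 of 60 sites lay outside DRACH (10.0%), with 3 in YTHDF2, 2 in YTHDF1 and 1 in PRRC2A. The site of YTHDF2 at GGACG (score 0.835) stood at -226 nt from the stop codon, and its sites at GGATT (0.514) and TTACT (0.573) at -239 and -366 nt. Other RNA adenosine methyltransferases had 9 listed sites, in METTL16 and PCIF1, and all were at DRACH. A last list held 13 of the genes that the study assayed or showed as examples, or their human counterparts. Of these, 8 had sites outside DRACH (14 of 93 sites, 15.1%), with 4 of 10 sites in DDIT4, a stress-induced inhibitor of mTOR signalling, and 3 of 7 in ABT1. RHOB, a small GTPase, had 1 of 15, at CAACT in the 3' UTR at position 20448698 of chromosome 2 (+), with a score of 0.654 and a listed DRACH site 4 nt downstream. The study used this adenosine of RHOB as an unmodified control beside the DRACH site in its assay. It reported no change at this adenosine when METTL3 was inhibited in HEK293T cells. With the same assay in mESC, the study reported Mettl3-dependent methylation at sites outside DRACH in Trim27 (GGATT), Palm3 (GTACT) and Hic2 (GGACG). The genes of this last list were chosen by the study on its own site lists.

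In the supply of S-adenosylmethionine, 3 of 17 sites lay outside DRACH (17.6%). AHCY and MTR had 1 site each outside DRACH, beside 6 and 8 at DRACH. MAT2A, the synthetase of S-adenosylmethionine and the known mRNA target of METTL16, had 1 listed site and no DRACH site. It lay at AAAGT, 5 nt after the last coding base before the stop codon, with a score of 0.504, close to the lowest of the list. The window is shown since it is the only listed site of the gene.
MAT2A: aaatattgAAAGTgttagcct
It spans chr2:85543764-85543784 on the plus strand. The METTL16 nonamer (TACAGAGAA, searched on the transcribed strand) occurred 5 times in the MAT2A mRNA, and its nearest copy had its target adenosine 41 nt downstream of the site. No HEK293T or mESC site had the core pentamer ACAGA, which occurred 40526 times in the HEK293T mRNAs. The classifier was trained on peaks lost in Mettl3 knockout cells, with peaks not lost as its negative set. This count therefore cannot decide whether METTL16 acts at this motif.

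To see whether sites outside DRACH were found again in a separate library, the heart list at 1000 ng was compared with those of lower input, all made by the same classifier. At 300 ng, 421 of 3217 sites outside DRACH were listed again at the same base (13.1%, 12 to 14.3%), compared with 7836 of 43204 DRACH sites (18.1%), a difference of -5.05 points (-6.23 to -3.79). By group the share was 15.0% with +2 broken, 12.4% with -1, 11.3% with +1 and 9.22% with -2. At 100 ng the shares were 1.24 and 2.38%, and at 50 ng 0.218 and 0.532%. The lists at 300, 100 and 50 ng held only 8845, 1112 and 248 sites, and this length limits all of these shares. At 300 ng the difference in points was largest in the top quartile of heart sites by deposited score. There 38.1% of 742 sites outside DRACH and 52.7% of 10864 DRACH sites were listed again (-14.6 points, -18.1 to -10.9). In the 3 lower quartiles the differences were -0.201, -1.15 and -1.62 points, each with an interval that held 0. In these quartiles only 1.87, 3.68 and 11.1% of sites outside DRACH and 2.07, 4.83 and 12.7% of DRACH sites were listed again. A difference in points had little room there, so these values cannot tell whether the difference is particular to high scores. The score of the heart lists runs to 708 and its scale is not given in the sources used here. It placed both kinds of site alike, with the median site outside DRACH at the 49.1th and the median DRACH site at the 50.1th percentile. Of the sites listed at 300 ng, 86.8% of 485 outside DRACH (83.5 to 89.5%) and 93.7% of 8360 at DRACH were listed at 1000 ng. Between samples of the same species, 44% of 1813 mESC sites outside DRACH were listed in heart at 1000 ng, compared with 60.8% of 23643 DRACH sites (-16.8 points, -19.2 to -14.4). This share was 49.9% with +2 broken, 47.0% with -1, 34.1% with +1 and 28.9% with -2. The sites were not matched for score or for expression of the gene in heart.

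Finally, human sites were compared with mouse within genes of the same symbol that held mESC sites. A listed mESC site with at most 3 mismatches over the 21 nt was found for 167 of 2306 sites outside DRACH (7.24%, 6.25 to 8.37%) and for 13.8% of 19786 DRACH sites (-6.55 points, -7.65 to -5.33). With identical windows the difference was -1.34 points (-1.84 to -0.701). Of the 167, the mESC site was outside DRACH as well in 129 and had the same pentamer in 127. The 5 pairs with the fewest mismatches and the highest HEK293T score had identical windows in both species, all with GGACG in the CDS.
FZD7, human and mouse: cgcttctcGGACGatggctac
FSCN1, human and mouse: gcagatctGGACGctggagca
RABIF, human and mouse: ttcaccaaGGACGtgggcaac
PRCC, human and mouse: gctttccaGGACGatgcagcc
YTHDF2, human and mouse: tttgtgaaGGACGttcccaat
FZD7, a Wnt receptor, lay at chr2:202035599-202035619 (+) in GRCh38 and at chr1:59483905-59483925 (+) in GRCm38, with scores of 0.938 and 0.814. FSCN1, an actin bundler, lay at chr7:5593065-5593085 (+) and chr5:142960577-142960597 (+) (0.841 and 0.807). RABIF lay at chr1:202881086-202881106 (-) and chr1:134506193-134506213 (+) (0.841 and 0.747). PRCC lay at chr1:156787022-156787042 (+) and chr3:87869715-87869735 (-) (0.840 and 0.765). YTHDF2, the reader that speeds mRNA decay, lay at chr1:28743771-28743791 (+) and chr4:132204327-132204347 (-) (0.835 and 0.674).

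Both lists were made by the same classifier, which reads these letters. Its training set included sites of the mESC list, so whether a window was listed in mESC is partly built in. The sequence in mouse was then read whether or not a site was listed there. For 724 of the 2306 sites outside DRACH, the mouse mRNA of the same symbol held a window with at most 3 mismatches and with the adenosine kept. Where the mouse pentamer was the same, 120 of 448 windows were listed in mESC (26.8%, 22.9 to 31.1%). Among windows that are DRACH in both species the share was 42.9% of 5746, a difference of -16.1 points (-20.2 to -11.7). This DRACH share includes windows with another DRACH pentamer in mouse. With the same DRACH pentamer in both species it was 46.0% of 4861 (44.6 to 47.4%). Where the mouse pentamer was DRACH, 37 of 82 were listed (45.1%, 34.8 to 55.9%), and where it was another pentamer outside DRACH, 2 of 194 (1.03%, 0.283 to 3.68%). For GGACG, 51 of 159 windows with GGACG in mouse were listed (32.1%, 25.3 to 39.7%), and so were 10 of 22 with GGACA. The most frequent change was to GGATG, with 54 windows, and 0 of these were listed, which allows a share of up to 6.64% (upper Wilson bound). In the other direction, 20 of 660 human DRACH sites whose mouse pentamer had left DRACH were listed in mESC (3.03%, 1.97 to 4.63%). The 3 closest pairs that are outside DRACH in human and inside it in mouse, both listed, differ by 1 letter within the capitals.
CCT3, human: aacactgtGGACGtctttgtt
Cct3, mouse: aacactgtGGACAtctttgtt
NIPA2, human: tgtcattgGTACTttgagtgg
Nipa2, mouse: tgtcattgGGACTttgagtgg
SF3B2, human: gaagagatGAATTctcagcag
Sf3b2, mouse: gaagagatGAACTctcagcag
CCT3, a subunit of the chaperonin TRiC, lay at chr1:156309108-156309128 (-) in GRCh38 and at chr3:88321616-88321636 (+) in GRCm38, with scores of 0.930 and 0.921. NIPA2, a magnesium transporter, lay at chr15:22866598-22866618 (+) and chr7:55933142-55933162 (-) (0.640 and 0.730). SF3B2, a splicing factor, lay at chr11:66058129-66058149 (+) and chr19:5287911-5287931 (-) (0.568 and 0.534). In these 3 pairs the human site has +2, -1 and +1 broken.

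**Figure D5:**
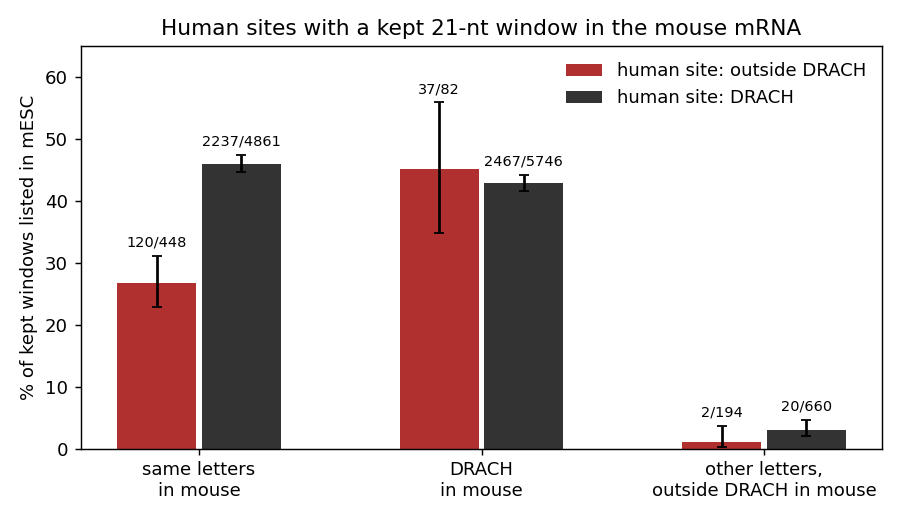
Share of kept 21-nt windows listed in mESC (y axis, %) by the pentamer in mouse (x axis), for human sites outside DRACH and at DRACH; lines are Wilson 95% intervals, numbers are listed windows over all windows, and for human DRACH sites the first bar is part of the second. For human sites outside DRACH the share is 26.8% with the same letters, 45.1% with DRACH in mouse and 1.03% with other letters.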

How the data were processed

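The m6A sites were taken as deposited, and no reads were mapped here. The score of each site (column 5) is, in the HEK293T and mESC lists, the m6Aboost score that the authors computed; the deposited score of the heart lists has a scale not given in the sources used here and served only to rank sites. The authors mapped miCLIP2 reads with STAR to GRCh38 or GRCm38, removed duplicates by UMI, took peaks at A found in at least 2 replicates (heart had 1 library) and ran m6Aboost on windows of 21 nt with the transcript region. Titles give the heart inputs below 1 µg as µg, whereas the paper gives ng, which was used.

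Pentamers were read from GRCh38 and GRCm38. Sites were placed on GENCODE 44 (human) and M21 (mouse), while the authors used 31 and M23. The longest complete protein-coding transcript (support level up to 3) gave regions, stop codons, junctions and occurrences, the last along spliced mRNA. Distances from the stop codon were counted from the last coding base before it, and the stop codon itself was counted with the 3' UTR. Shares have Wilson and differences Newcombe 95% intervals, and medians have exact binomial intervals. No test over samples was possible. Scripts ran on Python 3.11.15, SciPy 1.17.1, pandas 2.3.3 and NumPy 2.4.6 and were tested on simulated data.

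The sites and gene lists were chosen with earlier results of these data known. Named were the 12 genes with the most sites outside DRACH, genes with at least 3 such sites and no DRACH site, 6 gene lists, the 3 highest scores per single broken position (chromosome 8 left out), the 5 closest mESC pairs and the 3 most frequent pentamers per group. The 3 pairs that turn to DRACH in mouse, the bases at +3 and the neighbours of sites with A at +1 were chosen after the values were seen. The other pentamers named are those 1 letter from GGACT, those compared at +2, or examples. RNA-seq counts were not used here.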

Additional observations from a re-analysis of the deposited data

How the results depend on the processing

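No paired analysis was possible because each list pools its replicates into 1 value per site, and for the same reason no replicate could be left out. Of 76 alternatives, 31 kept the direction and the call, and no difference between kinds of site reversed. Of these 31, 5 moved by over 1.5 times: the CDS difference (6.10 points at scores of at least 0.7), the 3' UTR difference (-0.833 points over any transcript), the heart repeat (-8.95 points above the median score), the like mESC sites (-1.34 points with 0 mismatches) and the junction difference (-6.19 points at scores of at least 0.7). The number of sites outside DRACH was 7629 under RRACH, and 2193, 1115 and 335 with scores of at least 0.6, 0.7 and 0.8. Over these 3 score minimums the share with +2 broken was 63.6, 75.9 and 98.8%, with -1 22.5, 16.8 and 0.597%, with +1 6.20, 2.69 and 0%, with -2 7.20, 4.66 and 0.597%, and with several 0.502, 0 and 0%. With 1 site per gene, +2 made up 53.9% and -2 7.03%, and without sites that have a DRACH site within 10 nt, +1 made up 8.82%. The difference in the 3' UTR passed its interval at scores of at least 0.7 (-4.83 points) and in genes with both kinds (-2.59 points). Sites per 1000 occurrences of GGACG were 124 in genes with at least 5 sites, 151 within 400 nt of the stop codon and 37.8 at scores of at least 0.7. These values were 63.0, 93.2 and 9.45 for GTACT, 16.2, 25.1 and 1.27 for GGATT, and 26.1, 32.8 and 1.80 for CGACT. A DRACH site was nearby at 10.8% within 10 nt, 67.1% within 100 nt and 80.4% within 200 nt. The median score was 0.630 in the 3' UTR. Of sites outside DRACH, 0.204% lay at a transcript start (0 nt), 0.740% within 2 nt and 4.37% within 50 nt. The lower share near splice junctions, an alternative chosen after seeing the data, was lost in genes with both kinds of site (-0.179 points) and outside the last exon (-1.01 points). Whether depth differs between the 2 kinds of site was not tested.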
